A study of Mus musculus with 46 samples.

Results

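The response of wild type mouse embryonic fibroblasts (MEFs) to borrelidin was described from 23 of the 46 RNA-seq libraries of the study, 12 of wild type cells given 600 nM borrelidin in DMSO and 11 of wild type cells given DMSO as the vehicle, all harvested after 7 h. The other libraries were of an ATF4 KO line, which the authors made in house with CRISPR/Cas9. They entered here only in the filter on low counts, the scaling of library totals and the estimate of the spread between libraries. The labels call the replicates biological, the wild type MEFs were purchased from a cell repository, and nothing in the sources used here says that replicates came from separate embryos or thaws. The p-values therefore measure the spread between cultures within a line, pooled over the wild type and the KO line. The comparison asks which transcripts rose or fell when threonyl-tRNA charging was blocked in cells with an intact Atf4 gene. Both groups were grown in the same medium with serum and amino acids. Their labels call the cells wild type and name no transgene or deletion, without stating that none is present.

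Genes were described only where the identifiers of the deposited table could be read with confidence, in 5 stretches of the mouse genome (GRCm38) that were chosen because the mean levels of their coding genes followed those of the study's own results. They lie on chromosome 15 from 9.07 to 37.01 Mb, chromosome 18 from 4.63 to 10.56 Mb, chromosome 4 from 5.64 to 55.53 Mb, chromosome 6 from 13.83 to 31.56 Mb and chromosome 9 from 5.31 to 13.29 Mb, 109.47 Mb in all. They hold 1370 of the 55416 deposited identifiers. Of these 390, 327 of them protein coding, passed the filter on low counts and were tested among 8986 intervals, the term used here for the rows of the table, since outside the stretches a row was not read as the gene its identifier names. The other 980 were not tested, 536 of them without a count in wild type. Most genes known as ATF4 targets lie elsewhere in the genome and are not described.

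Borrelidin is a macrolide made by Streptomyces that binds threonyl-tRNA synthetase, the enzyme that loads threonine onto its tRNA. Uncharged tRNA activates the kinase GCN2, which phosphorylates eIF2α, slows translation of most mRNAs and raises that of ATF4, a bZIP factor that switches on genes for amino acid synthesis and transport, tRNA charging, autophagy and stress protection. This chain is called the integrated stress response. Many ATF4 targets carry an amino acid response element with the core TTNCATCA near their start.

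The libraries held 2476005 to 3467765 assigned counts with vehicle and 2047362 to 3043804 with borrelidin, and the stretches held 7.66 to 8.69% and 7.61 to 9.89% of them. All levels below are CPM, counts scaled to the TMM-adjusted library total, which compare libraries for the same gene and not genes with each other. The wild type vehicle libraries fell into 2 sets. On the first principal component, which held 67.2% of the variance of the most variable intervals, vehicle replicates 1 to 8 scored from -32.3 to -24.9, vehicle replicates 9 to 11 from 2.83 to 9.26, and the borrelidin libraries from 14.5 to 21.8. No label separates replicates 1 to 8 (the first vehicle set) from replicates 9 to 11 (the second vehicle set). On the second component, with 9.55% of the variance, borrelidin replicates 5 to 8 scored from -14.1 to -8.99 and the other 8 from 6.00 to 7.75, and both vehicle sets also held libraries on either side of 0.

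**Figure D1:**
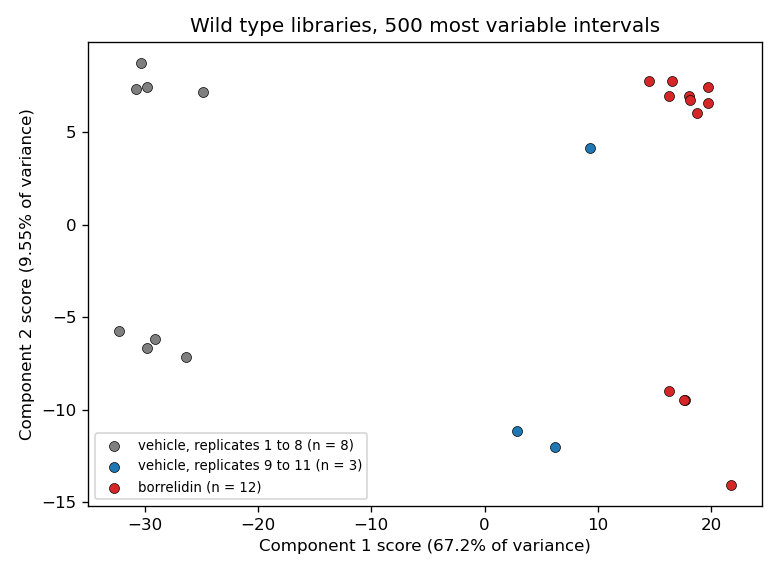
Scores of the 23 wild type libraries on the first 2 principal components of the most variable intervals, each axis labelled with its share of the variance and each point a library. The 3 libraries of the second vehicle set lie between 2.83 and 9.26 on component 1, nearer to the borrelidin libraries than to the first vehicle set.

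The labelled cell type was checked on markers that lie in the stretches. The 7 mesenchymal markers summed to 1121 to 1455 CPM with vehicle and 931 to 1270.0 CPM with borrelidin, carried by Tpm2, Cav1 and Zeb1, while Osr2, Pdgfd, Adamts12 and Col15a1 were low. Of the liver markers Cyp7a1 had no count, and the 4 together reached at most 1.28 CPM in any library. Of the testis markers Asz1 and Spam1 had no count, while Ccin and Fbxo43 reached at most 2.57 and 1.03 CPM. The 4 testis markers together reached at most 2.57 CPM with vehicle and 1.14 CPM with borrelidin. The 4 blood markers summed to 8.47 to 46.8 CPM with vehicle and 6.81 to 14.4 CPM with borrelidin, nearly all of it Bach2, with Il7r, Pax5 and Hemgn at most at 0.372, 1.33 and 0.803 CPM. The 5 neuronal markers summed to 10.8 to 35.5 and 12.9 to 30.4 CPM. The 3 epithelial markers summed to 0.583 to 5.37 CPM with vehicle and 7.05 to 12.7 CPM with borrelidin, an increase that lay in Cftr, while Esrp1 and Cdh17 stayed at most at 2.24 and 3.00 CPM. In bulk RNA, more cells of a type and more RNA per cell cannot be told apart, and the part of the marker sums in the results below was not tested.

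Every gene was compared in 2 ways, against all 11 vehicle libraries and against the second vehicle set alone (n = 3). Both comparisons use the same 12 borrelidin libraries, and the second vehicle set is part of the 11, so that they are not independent. A gene was called at an adjusted p under 0.05 in edgeR's quasi-likelihood test, adjusted over all 8986 intervals. Against all vehicle libraries 234 of the 390 genes were called, 164 higher and 70 lower with borrelidin, which is 60% against 59.4% of all tested intervals. By direction, 42.1% of the genes were higher against 26.5% of all intervals, and 17.9% lower against 32.9%. The median log2 fold change of the 390 genes was 0.17, and that of all intervals -0.06. Against the second vehicle set 68 genes were called, 35 higher and 33 lower, or 17.4% against 11.9% of all intervals. By direction, 8.97% were higher and 8.46% lower, against 6.41% and 5.46% of all intervals. The medians were 0.05 for the 390 genes and 0.0078 for all intervals. The counts of called genes given below for each gene list are to be read beside these shares of the 390 genes, and were not tested.

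In both comparisons and in the same direction 46 genes were called, 29 higher and 17 lower. This is 11.8% of the 390 genes against 10% of all intervals, with 7.44% against 5.53% higher and 4.36% against 4.52% lower. No gene was called in opposite directions, as were 0.0334% of all intervals. Of the 234 genes called against all vehicle libraries, 188 were not called against the second set. Of all 8986 intervals 5337 were called against all vehicle libraries, 903 of them also against the second set in the same direction. A fold change of the other sign there was found for 41 of the 234, or 10.5% of the 390 genes, against 12.3% of all intervals. Calls with a change of at least 0.5 on the log2 scale were 36.7% of the genes against 37.7% of all intervals with all vehicle libraries, and 10.5% against 8.66% with the second set. The borrelidin libraries did not overlap with any of the 11 vehicle libraries in 36 genes, 30 higher and 6 lower (9.23%, against 6.25% of all intervals), and not with the second set in 67 genes (17.2%, against 11.1%). In simulated counts the first comparison recovered 89.55% of changes of 1 on the log2 scale and the second 65.67%, and for changes of 0.5 the shares were 50.75% and 13.43%. The simulated spread was estimated with the 11 vehicle libraries as a single group and so included the difference between the sets. These shares therefore need not hold for the real counts. A missing call against the second set, with 3 vehicle libraries, is weak evidence, and a call in only 1 comparison is not shown to differ from the other.

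Without borrelidin replicates 5 to 8, which stood apart on the second component, 50 genes were called in both comparisons, 37 higher and 13 lower. Among the 27 genes described first below, the coding genes with a mean log2 CPM of 3 or more and the largest changes called in both comparisons, 13 kept both calls at the same threshold in every alternative fit and with each library left out that was tried. They were C9orf72, Gpr85, Klf4, Tars, Mdfic, Osgin2, Tmem209, Plekhf2 and Dnajc21 among the higher genes and Cav2, Dap, Tdrd7 and Cav1 among the lower. Alternatives were followed gene by gene only for genes named by the rules in the processing section. Others called in both comparisons, such as Polr1e, Zcchc7, Tspan12, Pdgfd, Cftr, Cdh10, Gm8341 and Mtdh, were not followed, so nothing is stated below about how stable their calls were.

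**Figure D2:**
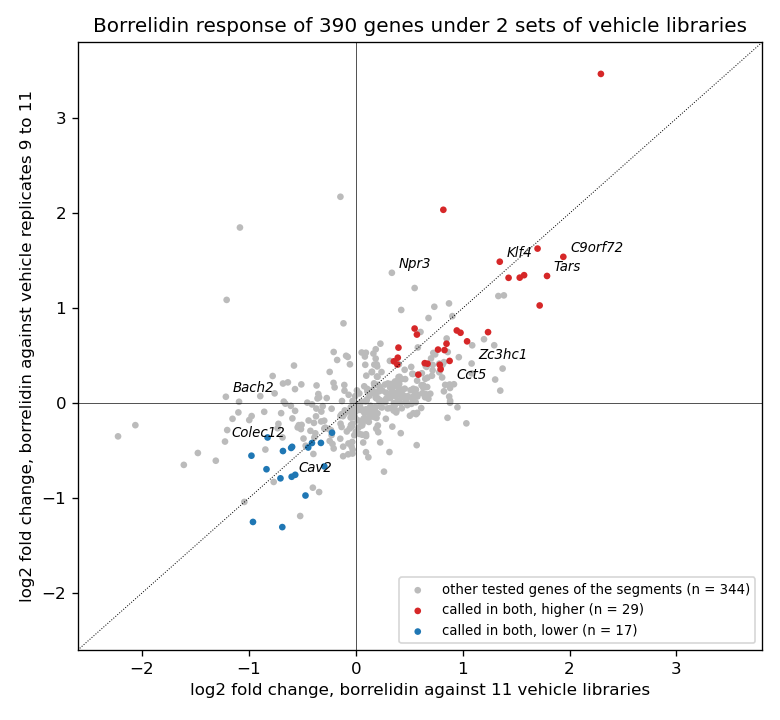
Log2 fold change with borrelidin of the 390 tested genes against all 11 vehicle libraries (horizontal axis) and against vehicle replicates 9 to 11 (vertical axis), with a point per gene and a dotted line of equal values. The 29 genes called higher in both lie in the upper right and the 17 called lower in the lower left, while Cct5 and Bach2 lie near 0 on the vertical axis.

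The gene for the target of the drug was higher in both comparisons. Tars (chr15:11382301-11399665, minus strand), which encodes cytosolic threonyl-tRNA synthetase, was measured at 729.9 to 865 CPM (median 811) in the first vehicle set, at 1338, 1252 and 1223 CPM in vehicle replicates 9, 10 and 11, and at 3006 to 3487 CPM (median 3181) with borrelidin. The 12 borrelidin libraries all lay far above all 11 vehicle libraries, and the second vehicle set lay between. The fold change was 3.46-fold against all vehicle libraries (log2 1.79 ± 0.09, SE; edgeR adjusted p = 2.09e-22) and 2.53-fold against the second set (log2 1.34 ± 0.10; adjusted p = 1.09e-14). Tars was among the 11 genes of the stretches that passed an adjusted p of 1e-10 against all vehicle libraries, all of them higher (2.82% of the 390 genes, against 1.71% of all intervals that were higher at this threshold). The others were C9orf72, Mdfic, Osgin2, Tmem209, Klf4, Plekhf2, Gm8341, Cep126, Dnajc21 and Rad1.

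Promoters from RefSeq (GRCm38.p6; 250 bases before to 50 after the start) were available for 233 of the 390 genes, matched by gene identifier or, failing that, by symbol. They were searched for the core TTNCATCA and its reverse complement TGATGNAA. It occurred in 3 of the 19 matched genes called higher in both comparisons (15.8%), in 0 of the 14 called lower, in 9 of the 233 tested genes (3.86%) and in 1219 of 27025 genes of the promoter table (4.51%). The windows of the 3 higher genes are shown 5′ to 3′ on the strand of the gene, because they are the only matches among the genes called in both comparisons, with the match in capitals.
Tars: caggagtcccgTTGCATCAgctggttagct
Anp32b: accggaaggtcTTACATCAgccagcccacg
Mdfic: caatccggataTGATGAAAgggagccacag
The Tars window is chr15:11399655-11399684 on the minus strand, with the centre of the match 11 bases before the start. The Anp32b window is chr4:46450804-46450833 on the plus strand, 107 bases before the start. The Mdfic window, chr6:15720659-15720688 on the plus strand, holds the reverse complement 13 bases after the start. A match of these letters is a description and does not show binding. The paper gives the element more narrowly, as A or G, then TT, then G or T, then CATCA. Of the 3 windows only that of Tars fits this narrower form, for which the shares above were not counted.

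The 6 genes of tRNA charging and processing were all higher against all vehicle libraries, and Tars and Rars2 in both comparisons. Rars2, the mitochondrial arginyl-tRNA synthetase, was measured between 55.02 and 85.8 CPM in the first vehicle set with a median of 82.9, at 125, 101 and 104 CPM in the second, and between 152 and 189.9 CPM with borrelidin with a median of 174. Borrelidin did not overlap with either vehicle set. The log2 fold changes were 1.04 ± 0.12 (edgeR adjusted p = 4.73e-10) and 0.65 ± 0.17 (adjusted p = 0.00548). The call against the second set was lost without vehicle replicate 10 or 11, where the log2 fold change stayed at 0.60 and 0.61. Pop1, a subunit of the RNase P and MRP complexes that trim tRNA and rRNA precursors, was higher against all vehicle libraries (log2 0.41 ± 0.06; adjusted p = 7.87e-07) and stood at 0.28 ± 0.10 against the second set (adjusted p = 0.0508). Trmt10b, Rpp25l and Trmo had log2 fold changes of 0.43, 0.65 and 0.81 against all vehicle libraries and of 0.14, 0.063 and 0.27 against the second set, where none was called.

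Of the 7 stress-inducible genes listed, 6 were higher against all vehicle libraries and Mdfic, Osgin2, Klf4 and Trp53inp1 in both comparisons. Mdfic (chr6:15720661-15802169, plus strand), a transcriptional modulator with a MyoD family inhibitor domain, was measured at 111 to 140.3 CPM (median 125) in the first vehicle set, at 161, 142 and 161 CPM in vehicle replicates 9, 10 and 11, and at 293 to 448 CPM (median 391) with borrelidin. Its log2 fold changes were 1.53 ± 0.07 (edgeR adjusted p = 6.71e-23) and 1.32 ± 0.11 (adjusted p = 5.09e-13), the smallest p of all genes of the stretches in the first comparison. Osgin2 (chr4:15997121-16013888, minus strand), of the oxidative stress induced growth inhibitor family, was measured between 46.04 and 69.8 CPM in the first vehicle set with a median of 55.6, at 61.6, 61.2 and 63.4 CPM in the second, and between 115 and 172 CPM with borrelidin with a median of 162. In both genes every borrelidin library lay above every vehicle library, and the vehicle sets lay close together against the size of the change. The log2 fold changes of Osgin2 were 1.43 ± 0.10 (adjusted p = 1.92e-17) and 1.32 ± 0.16 (adjusted p = 8.70e-09).

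Klf4 (chr4:55527143-55532466, minus strand), a zinc finger transcription factor that restrains proliferation in many differentiated cells, was measured at 20.9 to 42.4 CPM (median 30.2) in the first vehicle set, at 33.5, 21.3 and 26.9 CPM in vehicle replicates 9, 10 and 11, and at 56.2 to 89.97 CPM (median 77.8) with borrelidin. Its response was as large against the second vehicle set (log2 1.49 ± 0.20; edgeR adjusted p = 1.37e-07) as against all vehicle libraries (1.35 ± 0.12; adjusted p = 2.41e-13), and borrelidin did not overlap with vehicle. Trp53inp1, a p53 target that takes part in autophagy, was measured between 16.7 and 28.9 CPM in the first vehicle set with a median of 22.1, at 15.8, 21.6 and 17.2 CPM in the second, and between 20.7 and 38.9 CPM with borrelidin with a median of 31.2. The groups overlapped, and the log2 fold changes were 0.55 ± 0.13 and 0.79 ± 0.21 (with adjusted p of 2.86e-04 and 0.00672). Its second call was lost without vehicle replicate 9 or 11 (log2 0.70 and 0.74). Hilpda, a lipid droplet protein induced by hypoxia, and Gem, a GTPase of the early response type, were higher against all vehicle libraries (log2 0.81 ± 0.13 and 0.61 ± 0.19), with 0.41 ± 0.19 and 0.75 ± 0.32 against the second set, neither called. Nr4a3, an orphan nuclear receptor that is also inducible, was not called in either comparison (log2 -0.51 ± 0.25 and 0.20 ± 0.41).

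**Figure D3:**
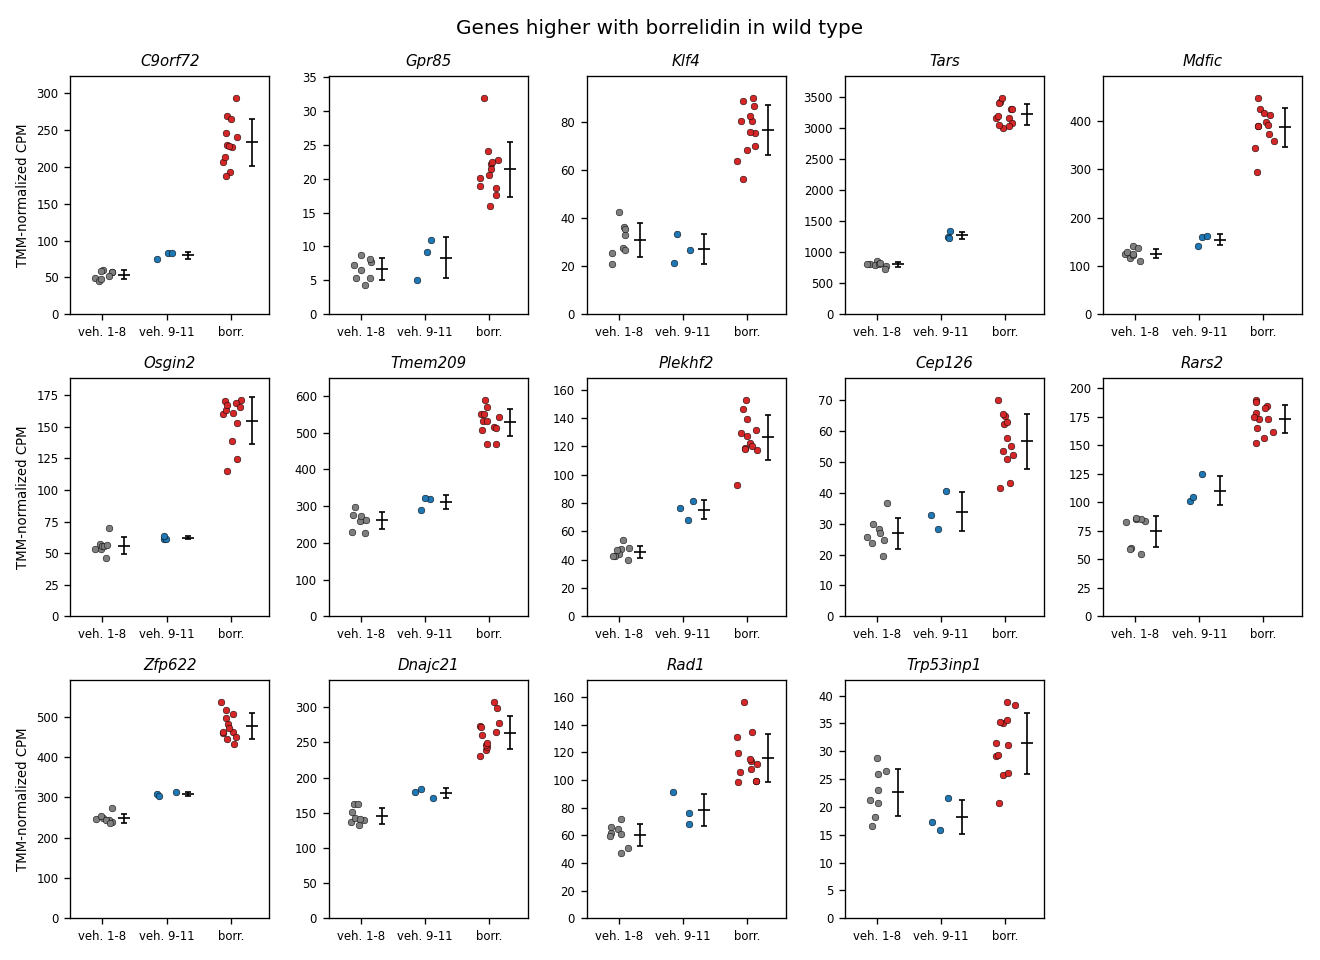
TMM-normalized CPM per library of the 14 genes with the largest increases called in both comparisons among coding genes with a mean log2 CPM of 3 or more, for vehicle replicates 1 to 8 (n = 8), vehicle replicates 9 to 11 (n = 3) and borrelidin (n = 12), with points for libraries and bars for mean and SD. In 13 of the 14 genes the borrelidin libraries lie above all vehicle libraries; in Trp53inp1 they overlap.

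Autophagy and lysosome genes included the largest fold change among the 27 genes. C9orf72 (chr4:35191285-35226175, minus strand), whose protein forms a complex that regulates Rab GTPases in autophagy and at the lysosome, was measured at 45.1 to 60.4 CPM (median 54.6) in the first vehicle set, at 82.8, 74.7 and 82.8 CPM in vehicle replicates 9, 10 and 11, and at 188 to 294 CPM (median 228) with borrelidin. The borrelidin libraries lay above all vehicle libraries, with 3.84-fold against all of them (log2 1.94 ± 0.11; edgeR adjusted p = 1.42e-19) and 2.91-fold against the second set (log2 1.54 ± 0.17; adjusted p = 5.60e-10). Its exons overlap the annotated Gm12367, which had only 14 counts in wild type. Plekhf2, an endosomal protein with a phosphoinositide-binding domain, was measured between 39.9 and 53.6 CPM in the first vehicle set with a median of 45.6, at 81.2, 67.8 and 76.5 CPM in the second, and between 92.3 and 153 CPM with borrelidin with a median of 125. Again the groups did not overlap, and the log2 fold changes were 1.24 ± 0.12 and 0.75 ± 0.17 (with adjusted p of 1.44e-11 and 0.00111). Of the 12 tested genes of this list 6 were higher and 1 lower, Tbc1d2, against all vehicle libraries. Against the second set 5 were higher, the 3 genes C9orf72, Plekhf2 and Trp53inp1 together with Rragd and Retreg1, which were named after their values were seen. Rragd, a Rag GTPase that recruits mTORC1 to lysosomes, had log2 fold changes of -0.11 and 0.84 ± 0.25, and Retreg1, a receptor for the autophagy of endoplasmic reticulum, 0.20 and 0.41 ± 0.14. Wac, which takes part in histone ubiquitination and autophagy, was higher against all vehicle libraries only (log2 0.46 ± 0.08, against 0.15 ± 0.10).

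Genes of protein folding and turnover gave mixed results. Of the 8 genes of ER-associated degradation and proteasome shuttling 7 were higher against all vehicle libraries, and March6 in both comparisons. March6, a ligase that marks membrane proteins of the endoplasmic reticulum with ubiquitin, had log2 fold changes of 0.39 ± 0.07 (edgeR adjusted p = 4.80e-06) and 0.48 ± 0.11 (adjusted p = 0.00106), although its borrelidin libraries, 314 to 505 CPM, overlapped with vehicle. The second call of March6 was lost in the wild type fit with a replicate block (log2 0.27). Rad23b, which carries ubiquitinated proteins to the proteasome, and Erp44, a chaperone of the early secretory pathway, were higher against all vehicle libraries by 0.62 and 0.67 on the log2 scale, and stood at 0.19 and 0.17 against the second set. Against all vehicle libraries 42.1% of the 390 genes were higher and 17.9% lower. Among 19 tested ligases and E2 enzymes 8 were higher and 2 lower in this comparison. Of these Wwp1, a HECT-type ubiquitin ligase, was called in both comparisons (log2 0.36 ± 0.06 and 0.44 ± 0.09; adjusted p = 2.10e-06 and 4.68e-04), and Skp2 and Topors were lower against the second set alone (log2 -0.30 ± 0.08 and -0.26 ± 0.07). Klhdc10, a substrate adaptor of a cullin ligase, was higher against all vehicle libraries only (log2 0.35 ± 0.06, against 0.12 ± 0.08).

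Of the 8 chaperones and co-chaperones 5 were higher and 1 lower against all vehicle libraries, and Dnajc21 and Dnajb5 were called in both comparisons in opposite directions. Cct5, a subunit of the cytosolic chaperonin, showed the effect of the vehicle sets. It was measured at 1112 to 1218 CPM (median 1124) in the first vehicle set, at 2459, 2352 and 2351 CPM in vehicle replicates 9, 10 and 11, and at 2467 to 3285 CPM (median 2643) with borrelidin. The second vehicle set lay well above the first and just below borrelidin. The log2 fold change was 0.88 ± 0.16 against all vehicle libraries (edgeR adjusted p = 9.44e-06) and 0.20 ± 0.19 against the second set (adjusted p = 0.612). Dnaja1, an Hsp40 protein, was lower against the second set alone (log2 -0.41 ± 0.13, against 0.07).

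Ribosome assembly genes rose in part. Of 10 listed genes 8 were higher against all vehicle libraries, none lower, and Zfp622, Dnajc21, Brix1 and Polr1e were called in both comparisons. Zfp622, a factor of late maturation of the large ribosomal subunit, was measured at 236 to 274 CPM (median 245) in the first vehicle set, at 313, 309 and 304 CPM in vehicle replicates 9, 10 and 11, and at 434 to 537 CPM (median 468) with borrelidin. Dnajc21, a J-domain protein that acts in the same process, was measured between 132 and 162 CPM in the first vehicle set with a median of 141, at 171, 184 and 179 CPM in the second, and between 231 and 308 CPM with borrelidin with a median of 262. In both the borrelidin libraries lay above every vehicle library, with log2 fold changes of 0.85 ± 0.11 and 0.63 ± 0.17 for Zfp622 (edgeR adjusted p = 1.22e-08 and 0.00787) and of 0.77 ± 0.08 and 0.56 ± 0.12 for Dnajc21 (adjusted p = 4.50e-11 and 6.28e-04). The second call of Zfp622 was lost without vehicle replicate 11 (log2 0.61). Brix1, needed to assemble the large subunit, rose by 0.79 ± 0.09 and 0.36 ± 0.11 on the log2 scale, and Polr1e, a subunit of RNA polymerase I, by 0.79 ± 0.10 and 0.40 ± 0.14. The second call of Brix1 was lost without vehicle replicate 10 or 11 (log2 0.39 and 0.28).

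Of 13 tested genes of mRNA capping, splicing, export and microRNA processing 10 were higher and none lower against all vehicle libraries, and Zfr and Zcchc7 were called in both comparisons. Zfr, a zinc finger RNA-binding protein, gave log2 fold changes of 0.65 ± 0.09 and 0.42 ± 0.14 (edgeR adjusted p = 8.93e-08 and 0.0311), with borrelidin replicate 5 at 492 CPM overlapping vehicle and the next at 624 CPM, and its second call was lost without any of vehicle replicates 9, 10 or 11 (log2 0.41 to 0.45). Zcchc7, a component of the complex that tags nuclear RNA for decay, had 0.40 ± 0.07 and 0.59 ± 0.11 (adjusted p = 1.04e-05 and 1.31e-04). Ncbp1, the large subunit of the nuclear cap-binding complex, was higher against all vehicle libraries (log2 0.63 ± 0.09) but stood at 0.16 ± 0.09 against the second set, and Thoc1, of the mRNA export complex THO, at 0.36 and 0.18. Exons of Ncbp1 overlap those of Tstd2 and Xpa. Ints8, a subunit of the Integrator complex, was lower against the second set alone (log2 -0.53 ± 0.12, against -0.03).

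Among the other genes higher in both comparisons Gpr85, an orphan G protein-coupled receptor, was a low transcript, measured at 4.26 to 8.74 CPM (median 6.91) in the first vehicle set, at 5.00, 9.16 and 10.9 CPM in vehicle replicates 9, 10 and 11, and at 15.9 to 31.9 CPM (median 20.97) with borrelidin. It gave log2 fold changes of 1.57 ± 0.18 (edgeR adjusted p = 4.05e-10) and 1.35 ± 0.29 (adjusted p = 5.92e-04). Tmem209, a membrane protein of the nuclear envelope, was measured between 226 and 298 CPM in the first vehicle set with a median of 263, at 289, 321 and 323 CPM in the second, and between 469 and 590.0 CPM with borrelidin with a median of 531. It gave log2 fold changes of 0.95 ± 0.07 and 0.77 ± 0.11 (with adjusted p of 8.75e-16 and 3.76e-07). Neither gene overlapped between borrelidin and vehicle. Cep126, a centrosomal protein at the base of the primary cilium, rose by 0.98 ± 0.10 and 0.74 ± 0.15 (adjusted p = 2.77e-11 and 4.62e-04). Its 12 borrelidin libraries, 41.4 to 70.1 CPM, lay above the 11 vehicle libraries. The second call of Cep126 was lost in the wild type fit with a replicate block (log2 0.54). Over the 14 higher genes the highest borrelidin value lay in replicate 10 for 6 genes, and the lowest in replicate 9 for 5 and in replicate 5 for 4. Among the borrelidin libraries replicate 10 had the fewest assigned counts (2047362) and the largest share of them in the stretches (9.89%). Replicate 5 had the lowest TMM factor (0.777) and the smallest share in the stretches (7.61%). The part of library quality in these extremes was not tested.

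Some genes called in both comparisons fell outside the rule for the 27 genes, because they are low, non-coding or smaller in change, and were named after their values were seen. Cftr, the chloride channel mutated in cystic fibrosis, had the largest fitted fold changes (log2 2.29 ± 0.34 and 3.47 ± 0.65; edgeR adjusted p = 2.18e-07 and 8.86e-05) at low levels, from 0 to 3.46 CPM with vehicle and 4.96 to 9.74 CPM with borrelidin. Cdh10, a cadherin, was also low, with 3.79 to 7.85 CPM with borrelidin and at most 2.69 CPM with vehicle (log2 1.70 ± 0.27 and 1.63 ± 0.46). Gm8341, a processed pseudogene whose reads may belong to its parent gene, had log2 fold changes of 1.72 ± 0.17 and 1.03 ± 0.23. Mtdh, which encodes the membrane protein metadherin, rose by 0.67 ± 0.08 and 0.42 ± 0.11 at a high level, 1058 to 1367 CPM with borrelidin against at most 929.9 CPM with vehicle. None of these 4 genes overlapped between borrelidin and vehicle.

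Caveolins and membrane receptors were lower in part. Of 14 tested members of the list 9 were lower and 2 higher against all vehicle libraries, and Cav1, Cav2, Met, Slc44a1 and Tspan12 were lower in both comparisons. The receptor gene Gpr85, higher in both comparisons, was not on this list. Cav1 (chr6:17306335-17341452, plus strand), the main coat protein of caveolae and one of the mesenchymal markers above, was measured at 318 to 486 CPM (median 448) in the first vehicle set, at 414, 383 and 353 CPM in vehicle replicates 9, 10 and 11, and at 248 to 313 CPM (median 271) with borrelidin. Its neighbour Cav2 (chr6:17281185-17289115, plus strand), which assembles with it, was measured between 127 and 176 CPM in the first vehicle set with a median of 162, at 197, 208 and 155 CPM in the second, and between 88.5 and 131 CPM with borrelidin with a median of 112. In Cav1 all borrelidin libraries lay below all vehicle libraries, and in Cav2 below the second set but not below all of the first. Their log2 fold changes were -0.59 ± 0.07 and -0.46 ± 0.10 for Cav1 (edgeR adjusted p = 8.73e-10 and 7.80e-04) and -0.60 ± 0.08 and -0.77 ± 0.11 for Cav2 (adjusted p = 2.36e-08 and 8.47e-07).

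Met, the receptor of hepatocyte growth factor, lies close to the caveolins on chromosome 6 and was measured at 254 to 324 CPM (median 277) in the first vehicle set, at 291, 288 and 279 CPM in vehicle replicates 9, 10 and 11, and at 107 to 244 CPM (median 221) with borrelidin. Every borrelidin library lay below vehicle. Borrelidin replicate 5 had the lowest value, and the next lay at 201 CPM. The log2 fold changes were -0.41 ± 0.09 and -0.42 ± 0.13 (edgeR adjusted p = 8.57e-05 and 0.0231), and the second call was lost without any of vehicle replicates 9, 10 or 11, with log2 fold changes from -0.44 to -0.40. Slc44a1, a choline transporter, fell by 0.33 and 0.42 on the log2 scale with overlap with the first vehicle set, and its second call was lost without vehicle replicate 11 (log2 -0.38). Its exons overlap the antisense transcript 1700060J05Rik, which was called lower too, and without a stated strand setting their reads cannot be told apart. Tspan12, a tetraspanin, was low (1.84 to 7.27 CPM with borrelidin) and had log2 fold changes of -0.47 ± 0.20 and -0.97 ± 0.27. Npr2 and Npr3, receptors of natriuretic peptides, differed between the comparisons. Npr2 was lower against all vehicle libraries (log2 -0.996 ± 0.17; adjusted p = 4.02e-06) and stood at -0.18 ± 0.23 against the second set (adjusted p = 0.725), while Npr3 was higher against the second set alone (log2 1.37 ± 0.34; adjusted p = 0.00310, against 0.34 ± 0.22 with all vehicle libraries).

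**Figure D4:**
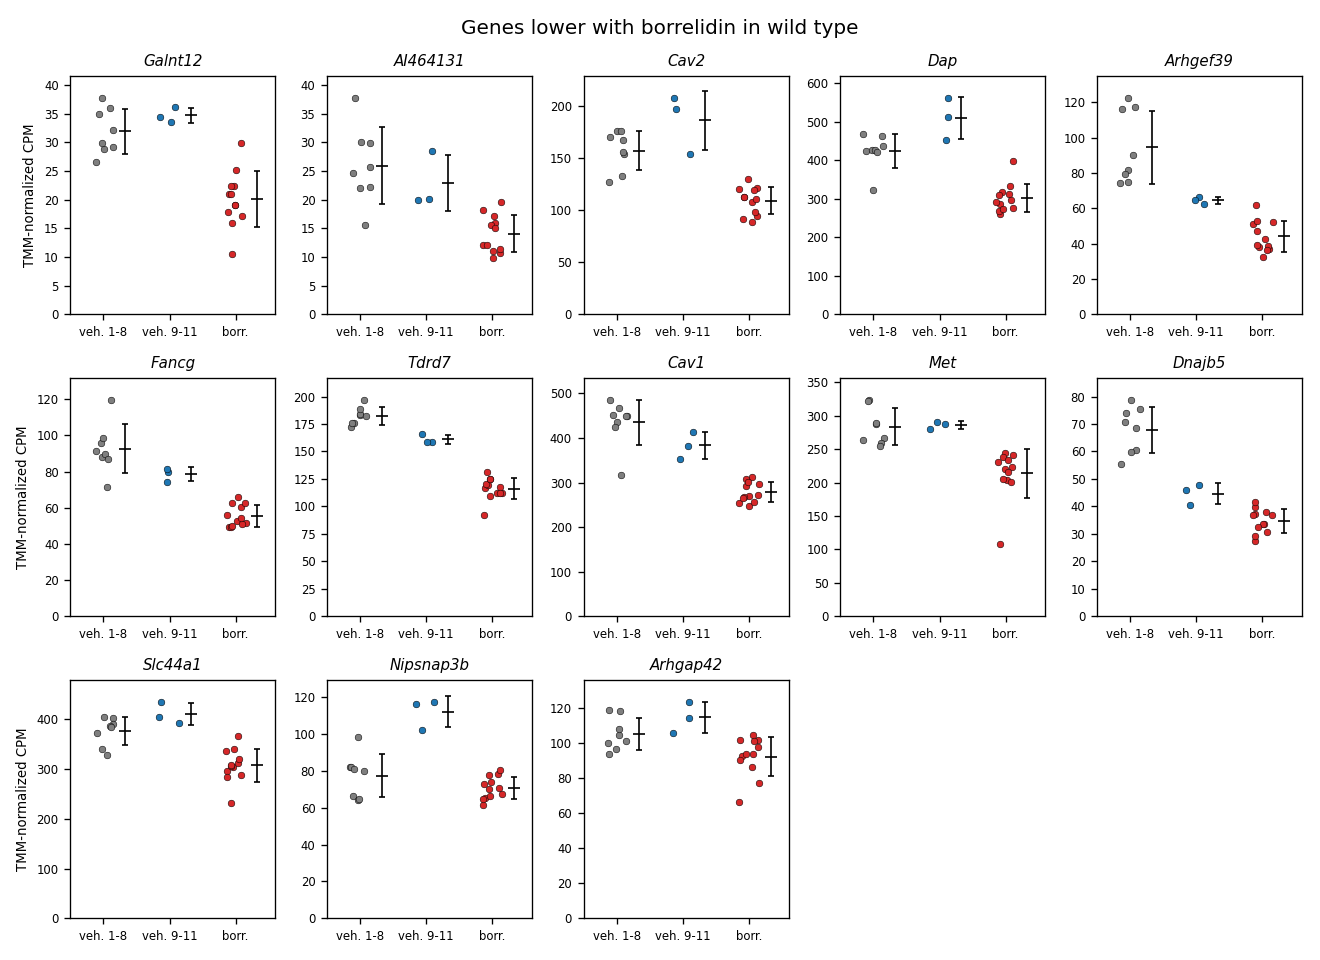
TMM-normalized CPM per library of the 13 coding genes with a mean log2 CPM of 3 or more that were called lower in both comparisons, for vehicle replicates 1 to 8 (n = 8), vehicle replicates 9 to 11 (n = 3) and borrelidin (n = 12), with points for libraries and bars for mean and SD. In 5 genes (Arhgef39, Fancg, Tdrd7, Cav1 and Met) all borrelidin libraries lie below all 11 vehicle libraries.

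Other lower genes came from several functions. Dap, a death-associated protein that restrains autophagy, was measured at 322 to 468 CPM (median 426) in the first vehicle set, at 562, 453 and 511 CPM in vehicle replicates 9, 10 and 11, and at 261 to 398 CPM (median 294) with borrelidin. Its changes on the log2 scale were -0.57 ± 0.09 and -0.75 ± 0.13 (edgeR adjusted p = 1.46e-06 and 2.43e-05). Galnt12, which starts mucin-type O-glycosylation, was measured between 26.6 and 37.8 CPM in the first vehicle set with a median of 30.9, at 33.5, 34.4 and 36.1 CPM in the second, and between 10.5 and 29.8 CPM with borrelidin with a median of 20.02. It gave log2 fold changes of -0.70 ± 0.12 and -0.79 ± 0.18 (with adjusted p of 3.13e-06 and 0.00102). In both the borrelidin libraries lay below the second vehicle set and overlapped with the first. The second call of Galnt12 was lost in the wild type fit with a replicate block (log2 -0.52). Of the 10 genes of sialic acid and glycosylation Galnt12 was the only gene called in both comparisons, 5 were higher against all vehicle libraries, among them Alg2 and Manea (log2 0.83 ± 0.11 and 0.66 ± 0.10, against 0.43 ± 0.16 and 0.38 ± 0.14), and Gne, the key enzyme of sialic acid synthesis, was lower against the second set alone (-0.49 ± 0.13, against -0.028).

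Tdrd7, a Tudor domain protein of RNA granules that also restricts viruses, was measured at 172 to 197 CPM (median 183) in the first vehicle set, at 166, 159 and 158 CPM in vehicle replicates 9, 10 and 11, and at 92.6 to 131 CPM (median 117) with borrelidin. The groups did not overlap, and the log2 fold changes were -0.60 ± 0.07 and -0.47 ± 0.09 (edgeR adjusted p = 1.26e-10 and 3.00e-04). Of the 7 tested antiviral and inflammatory genes 4 were lower and 1 higher against all vehicle libraries. Ddx58, the sensor of viral RNA called RIG-I, was measured between 153 and 309.6 CPM in the first vehicle set with a median of 254, at 129, 119 and 139.9 CPM in the second, and between 93.4 and 137 CPM with borrelidin with a median of 124. The second vehicle set lay in or next to the range of borrelidin. Its log2 fold change was -0.86 ± 0.13 against all vehicle libraries (adjusted p = 2.74e-07) and -0.09 ± 0.15 against the second set (adjusted p = 0.798). Trim14, an adaptor of antiviral signalling, had -1.61 ± 0.25 and -0.65 ± 0.39 at low levels, and its exons overlap those of Nans. Casp4, an inflammatory caspase, was called higher in both comparisons from very few reads, with 0.523 to 2.596 CPM with borrelidin. Of the 6 genes of NF-kB and TGF-beta kinases and cIAPs 2 were lower and 2 higher against all vehicle libraries and none was called against the second set. Birc3, an inhibitor of apoptosis, had log2 fold changes of -0.73 ± 0.10 and -0.26 ± 0.14, Otulin, a deubiquitinase of linear chains, 0.65 ± 0.14 and 0.26 ± 0.20, and Map3k7, the kinase TAK1, 0.32 ± 0.07 and 0.095 ± 0.11.

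Arhgef39 and Fancg, a subunit of the Fanconi anaemia core complex, lie near each other on chromosome 4. Arhgef39 was measured at 74.5 to 123 CPM (median 85.9) in the first vehicle set, at 66.2, 64.9 and 62.6 CPM in vehicle replicates 9, 10 and 11, and at 32.3 to 62.1 CPM (median 40.9) with borrelidin. Fancg was measured between 71.7 and 119.7 CPM in the first vehicle set with a median of 90.3, at 74.3, 79.9 and 81.5 CPM in the second, and between 49.1 and 65.8 CPM with borrelidin with a median of 53.4. Borrelidin lay below every vehicle library in both, by a narrow margin in Arhgef39. The log2 fold changes were -0.98 ± 0.12 and -0.55 ± 0.17 for Arhgef39 (edgeR adjusted p = 1.00e-08 and 0.0274) and -0.68 ± 0.09 and -0.50 ± 0.14 for Fancg (adjusted p = 5.94e-08 and 0.00990). Leaving out 1 vehicle library of the second set ended the second call of Arhgef39 in each case (log2 -0.58 to -0.52) and that of Fancg without replicate 10 or 11 (log2 -0.48 for both).

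Dnajb5, an Hsp40 co-chaperone, fell by 0.82 and 0.36 on the log2 scale (edgeR adjusted p = 5.36e-10 and 0.0402), and a borrelidin library overlapped with vehicle replicate 11. Its second call was lost without any of vehicle replicates 9, 10 or 11 (log2 -0.43 to -0.30). AI464131 had log2 fold changes of -0.83 ± 0.14 and -0.70 ± 0.22, and its second call was lost without vehicle replicate 10 or 11 (log2 -0.77 and -0.52). Nipsnap3b, a mitochondrial protein, had -0.29 ± 0.11 and -0.67 ± 0.15, with the second vehicle set at 117, 102 and 116 CPM above both the first set and borrelidin, and its call against all vehicle libraries was lost without borrelidin replicates 5 to 8 (log2 -0.27). Arhgap42 had -0.22 ± 0.07 and -0.31 ± 0.11, the smallest of these changes, and its second call was lost without vehicle replicate 9, 10 or 11. Both calls of Arhgap42 were lost without borrelidin replicates 5 to 8 (log2 -0.11 and -0.22), and without them the second call of Dnajb5 was lost too (log2 -0.32), as it was without borrelidin replicate 10 alone (log2 -0.34).

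Of 18 genes of actin and focal adhesion 6 were lower and 4 higher against all vehicle libraries, and Arhgap42 was the only gene called in both comparisons. Tln1, encoding talin, had log2 fold changes of -0.44 ± 0.08 and -0.18 ± 0.12, Svil, encoding supervillin, -0.70 ± 0.11 and -0.10 ± 0.14, and Jcad, a junctional protein, -0.54 ± 0.08 and -0.25 ± 0.11. Borrelidin lay below all vehicle libraries in Jcad, although it was not called against the second set (edgeR adjusted p = 0.125). Tes, a focal adhesion protein, was lower against the second set alone (log2 -0.57 ± 0.16, against 0.12), and Coro2a, a coronin, higher (0.53 ± 0.18, against 0.10). Of 11 tested genes of extracellular matrix and mesenchymal factors 3 were lower and 1 higher against all vehicle libraries, and Pdgfd was lower in both comparisons from few reads (log2 -0.69 ± 0.28 and -1.30 ± 0.38). Colec12, a scavenger receptor, was measured between 54.3 and 131 CPM in the first vehicle set with a median of 117, at 49.7, 50.2 and 58.4 CPM in the second, and between 29.4 and 52.2 CPM with borrelidin with a median of 38.1. The log2 fold changes were -1.22 ± 0.16 (adjusted p = 1.81e-08) and -0.40 ± 0.20 (adjusted p = 0.225). Reck, an inhibitor of matrix metalloproteinases, had -0.76 ± 0.15 and 0.10 ± 0.19. Of 9 metalloproteinases 4 were tested, and Mmp13 and Mmp3 were higher against all vehicle libraries (log2 1.30 ± 0.26 and 0.85 ± 0.23), both low, with 0.61 ± 0.37 and 0.68 ± 0.36 against the second set, not called.

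Among genes of DNA repair and the cell cycle Rad1, Fancg, Anp32b and Ccny were called in both comparisons. Rad1, a subunit of the checkpoint clamp loaded at damaged DNA, was measured at 47.5 to 71.8 CPM (median 61.02) in the first vehicle set, at 91.2, 75.8 and 68.5 CPM in vehicle replicates 9, 10 and 11, and at 98.2 to 157 CPM (median 113) with borrelidin. The groups did not overlap, and Rad1 gave log2 fold changes of 0.83 ± 0.09 and 0.56 ± 0.13 (edgeR adjusted p = 6.69e-11 and 0.00145). Its second call was lost without vehicle replicate 11 (log2 0.47). Of the 9 repair genes 6 were higher and 2 lower against all vehicle libraries, and Rad1 and Fancg were called in both comparisons in opposite directions. Aptx, which repairs abortive DNA ligation, had 0.53 ± 0.08 and 0.31 ± 0.12. Of 10 cell cycle genes 6 were higher and none lower against all vehicle libraries, and Anp32b and Ccny were called in both comparisons. Anp32b, an acidic nuclear protein that binds histones and one of the 3 genes with the searched core TTNCATCA, was measured between 1220.1 and 1459 CPM in the first vehicle set with a median of 1391, at 2214, 2029.9 and 2139.9 CPM in the second, and between 2686 and 3476 CPM with borrelidin with a median of 2798. The groups did not overlap, and Anp32b gave log2 fold changes of 0.88 ± 0.11 and 0.45 ± 0.14 (with adjusted p of 4.89e-09 and 0.0307). Its second call was lost without vehicle replicate 9, 10 or 11 (log2 0.42 to 0.49), as was that of Ccny (log2 0.26 to 0.34). Ccny, a cyclin of the cell membrane, had 0.59 ± 0.07 and 0.30 ± 0.10, and Orc3, of the origin recognition complex, 0.39 ± 0.05 and 0.18 ± 0.07. Melk, a mitotic kinase, and Skp2, which marks p27 for degradation, were lower against the second set alone (log2 -0.46 ± 0.12 and -0.30 ± 0.08).

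Mitochondrial, Golgi and metabolic genes were among the 188 genes called against all vehicle libraries only. In that comparison 42.1% of the 390 genes were higher and 17.9% lower. Of 13 mitochondrial genes 8 were higher and 1 lower against all vehicle libraries and none was called against the second set. Mrpl50, of the mitochondrial ribosome, had log2 fold changes of 0.78 ± 0.11 and 0.42 ± 0.15, Stoml2 0.62 ± 0.13 and 0.10 ± 0.16, and the complex I assembly factor Ndufaf6 0.88 ± 0.19 and 0.16 ± 0.25. Of 14 genes of Golgi and vesicle transport 10 were higher and 1 lower against all vehicle libraries and none was called against the second set, with Golph3 at 0.51 ± 0.10 and 0.14 ± 0.14, Rab18 at 0.37 ± 0.08 and 0.074 ± 0.11, and Rgp1, the lower gene, at -0.61 ± 0.10 and -0.028 ± 0.13. Of 13 tested metabolic enzymes 5 were higher and 2 lower against all vehicle libraries and none was called against the second set, with Amacr at 0.63 ± 0.17 and 0.19 ± 0.24, Grhpr at 0.43 ± 0.11 and 0.25 ± 0.18, and Gba2, whose exons overlap those of Rgp1, at -0.51 ± 0.09 and -0.27 ± 0.13.

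Of 14 tested transcription factors 7 were higher and 3 lower against all vehicle libraries and only Klf4 was called in both comparisons. Nfx1 had log2 fold changes of 0.25 ± 0.05 and 0.13 ± 0.07. Bach2, a repressor best known from lymphocytes, was measured at 16.4 to 46.2 CPM (median 28.3) in the first vehicle set, at 8.47, 11.7 and 9.24 CPM in vehicle replicates 9, 10 and 11, and at 6.81 to 14.1 CPM (median 10.2) with borrelidin. The second vehicle set lay within the range of borrelidin. The log2 fold change was -1.21 ± 0.20 against all vehicle libraries (edgeR adjusted p = 2.06e-06) and 0.068 ± 0.26 against the second set (adjusted p = 0.918), and exons of Bach2 overlap the antisense Bach2os. Of 7 chromatin regulators 5 were higher against all vehicle libraries and Anp32b in both comparisons, with the histone ubiquitin ligase Rnf20 at 0.27 ± 0.05 and 0.20 ± 0.08. Of 8 tested genes of centrosome and primary cilium 2 were higher, Cep41 and Invs (log2 0.40 ± 0.09 and 0.46 ± 0.09), and 2 lower, among them Kif24 (-0.51 ± 0.09), against all vehicle libraries. Against the second set Cep41, Invs and Kif24 stood at 0.28 ± 0.15, 0.35 ± 0.14 and -0.23 ± 0.12, not called, and Anks6 was higher there alone (0.49 ± 0.17, against 0.086). Cep126, higher in both comparisons, was not on this list. Of the 3 Hippo pathway genes Stk3 was higher against all vehicle libraries (log2 0.40 ± 0.10) and stood at 0.12 ± 0.15 against the second set. Ywhaz was not called in either comparison (log2 0.13 ± 0.08 and -0.11 ± 0.11), nor was Yap1 (-0.029 ± 0.06 and -0.21 ± 0.09; edgeR adjusted p = 0.715 and 0.115). The borrelidin libraries of Yap1, at 456 to 578 CPM, nevertheless all lay below the second vehicle set at 633, 605 and 618 CPM.

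**Figure D5:**
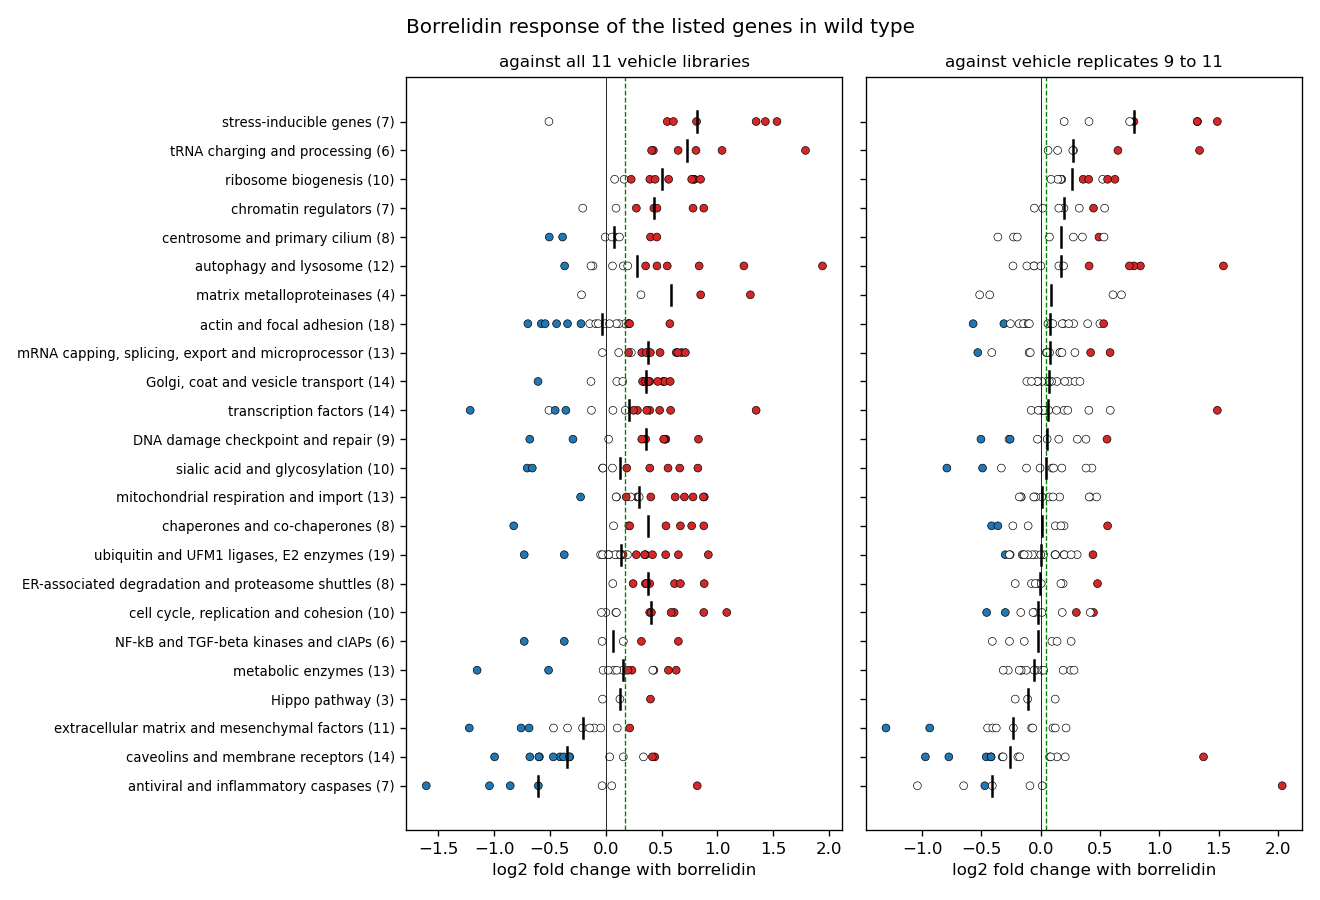
Log2 fold change with borrelidin of the tested members of 24 gene lists, against all 11 vehicle libraries (left) and against vehicle replicates 9 to 11 (right), with a point per gene, filled red or blue where called higher or lower, a black bar at the list median and a green dashed line at the median of the 390 genes (0.17 and 0.05). The list of stress-inducible genes has the highest median in both panels, 0.81 and 0.79. The members of all lists were chosen with earlier results of these data known.

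Beside the 390 genes' medians of 0.17 and 0.05, the list medians of the log2 fold change were 0.81 and 0.79 for the stress-inducible genes, 0.73 and 0.27 for tRNA charging and processing, 0.50 and 0.27 for ribosome biogenesis and 0.28 and 0.17 for autophagy and lysosome, against all vehicle libraries and against the second set. They were -0.35 and -0.25 for caveolins and membrane receptors, -0.60 and -0.41 for antiviral and inflammatory genes and -0.21 and -0.23 for extracellular matrix. For ER-associated degradation the medians were 0.38 and -0.01, for mitochondrial genes 0.30 and 0.01 and for Golgi transport 0.36 and 0.07. The lists hold 3 to 19 tested genes each, and their medians were not tested. Their members were chosen with earlier results of these data known, so the order of the medians is no evidence about the classes. The stress-inducible list holds Mdfic, Osgin2, Klf4 and Trp53inp1, all among the higher genes described first.

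The calls were spread over all 5 stretches. On chromosome 15, 10 of 66 tested genes were higher and 1 lower in both comparisons, among them Tars, Zfp622, Dnajc21, Rad1 and Brix1, and Dap was the lower gene. Rad1 and Brix1 are divergent neighbours whose annotated starts lie 71 bases apart, and Dnajc21 follows Brix1 on the same strand. Chromosome 4 held 217 tested genes, with 10 higher and 10 lower. On chromosome 6 the counts were 5 higher and 4 lower of 63, and Mdfic on the one hand and Cav1, Cav2 and Met on the other moved in opposite directions. On chromosome 9 they were 2 higher and 2 lower of 18, and on chromosome 18 they were 2 higher and 0 lower of 26.

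A further 22 genes were called against the second vehicle set and not against all vehicle libraries, 6 higher and 16 lower. Of all 8986 intervals 1067 were called against the second set, 576 higher and 491 lower. Called in both comparisons in the same direction were 903 intervals, 497 higher and 406 lower. In 14 of the 22 genes the 3 libraries of the second set lay above or below every library of both other groups. This pattern was not counted over all intervals. Tes was measured at 243 to 288 CPM (median 269) in the first vehicle set, at 586, 552 and 534 CPM in vehicle replicates 9, 10 and 11, and at 331 to 437 CPM (median 378) with borrelidin. Ints8 was measured between 269 and 318 CPM in the first vehicle set with a median of 294, at 475, 504 and 496 CPM in the second, and between 255 and 426 CPM with borrelidin with a median of 339.8. In both the second vehicle set was highest, and in Tes borrelidin lay between the sets. Npr3 was the opposite case, at 31.9, 35.9 and 33.2 CPM in replicates 9, 10 and 11, below the first set (41.5 to 116 CPM) and borrelidin (50.6 to 149 CPM with borrelidin). Among the genes called against all vehicle libraries whose fold changes were furthest apart between the comparisons were, beside Bach2, the low transcripts 9930017N22Rik (log2 -1.08 ± 0.48 and 1.85 ± 0.96), Gm42549 (-1.21 ± 0.48 and 1.09 ± 0.91), 5330406M23Rik (-2.22 ± 0.49 and -0.35 ± 0.80), Gm43029 (-2.06 ± 0.49 and -0.23 ± 0.84) and Gm6576 (1.03 ± 0.37 and -0.21 ± 0.44), none of them called against the second set. Without borrelidin replicates 5 to 8 the calls of 9930017N22Rik and Gm6576 against all vehicle libraries were lost (log2 -1.01 and 0.95), and that of 9930017N22Rik was lost without borrelidin replicate 5 alone (log2 -0.99).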

How the data were processed

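The authors trimmed reads with fastp, aligned them with HISAT2 and deposited unnormalized counts by gene identifier, 1 column for each of the 46 libraries. HTSeq and the build mm10 appear in the submitters' processing notes, whereas the paper gives feature counts as the counter. Tool versions, the annotation release and whether strand was used: not given in the sources used here. In all, 5 closing rows named no gene and took a mean of 89.1% of reads, 63.8 to 70.1% in wild type being reads outside any feature, and were left out of library sizes and tests. GENCODE M21 (GRCm38) contains 52083 of the 55416 identifiers and gave names and positions in the 5 stretches, bounded to 0.01 Mb. The members, the 24 gene lists (244 genes, 227 tested), the split of the vehicle libraries and the tests were chosen with earlier results of these data known.

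The quasi-likelihood test of edgeR 4.0.16 (R 4.3.3) was run after TMM scaling and filterByExpr, with Benjamini-Hochberg adjustment over 8986 intervals, in a model of group means over all libraries, in which wild type vehicle was a single term or, in the second comparison, the terms replicates 1 to 8 and replicates 9 to 11. Errors of log2 fold changes are standard errors derived from the test statistic. A check on simulated counts with 200 changed intervals gave 8 false calls in the first comparison and 0 in the second. Named genes were up to 14 per direction among coding genes whose mean log2 CPM was 3 or more, called in both comparisons, ranked by the smaller of their changes, the 3 of each list with the smallest p, the 6 called genes whose changes lay furthest apart, and genes whose motif is printed. Further genes in the text, among them list members called in either comparison, were named after their values were seen. Such genes were not among those followed under the alternatives. Every pair of libraries within a group differed by more than sampling noise (chi-square per degree of freedom at least 1.86). The labels number replicates alike in both groups, but same-numbered deviations correlated over 0.1 in 2 of 11 pairs only, so the numbers were not taken as pairing. The vehicle deviations were from the mean of all 11 vehicle libraries and so held the difference between the sets. This check therefore cannot settle pairing. Alternatives were another normalization, no filter, DESeq2 1.42.0, limma voom (limma 3.58.1), fits of wild type alone with and without a replicate block, other thresholds and leaving out libraries. Tables and plots were made in Python 3.11.15.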

Additional observations from a re-analysis of the deposited data

How the results depend on the processing

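The main limit is the vehicle group. Against all 11 vehicle libraries 234 genes were called, 271 against vehicle replicates 1 to 8 and 68 against replicates 9 to 11, and nothing in the labels says why the sets differ, so that drug and set cannot be fully told apart. In the simulated counts most changes of 0.5 on the log2 scale were not called against 3 vehicle libraries. Since the simulated spread included the difference between the vehicle sets, the share missed in the real counts is not known. The settings that moved a count by over 1.5 times were as follows. With a change of at least 0.5 demanded, 143 genes were called against all vehicle libraries, 41 against the second set and 27 in both. With no filter on low counts, which adds tests, 38 were called against the second set and 28 in both. At an adjusted p of 1e-10 the count against all vehicle libraries was 11, and it became 37 with DESeq2, 7 with the wild type libraries alone, 1 with a replicate block, 2 against the second set and 6 without borrelidin replicates 5 to 8, an alternative chosen after seeing the data. Leaving out single libraries (each vehicle library of the second set, and borrelidin replicates 5 and 10, the last 2 chosen after seeing the data) gave 36 to 76 calls against the second set, 24 to 52 in both comparisons, 235 to 247 against all vehicle libraries and 9 to 10 at 1e-10. The lowest counts in both comparisons were 24 without vehicle replicate 11 and 28 without replicate 10. The cause was not tested.

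Same-numbered vehicle and borrelidin libraries had correlations from -0.06 to 0.14, and 1 of 11 vehicle libraries correlated best with its own number. Vehicle deviations included the difference between the vehicle sets, so these values do not settle whether libraries were paired. The replicate block, fitted on the wild type libraries alone, gave 235 calls against all vehicle libraries, 42 against the second set (33 higher and 9 lower) and 34 in both. The second calls of Cep126, Galnt12 and March6 were lost with the block and under no other alternative (log2 0.54, -0.52 and 0.27).

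Of 1743 values of named genes under alternatives 1636 kept direction and side of the threshold, 17 gained a call, 73 lost one (62 of these against the second set) and 17 changed sign, all of them uncalled. Against the second set the sign changed for Rgp1 with the block (0.048), without borrelidin replicates 5 to 8 (0.0061) and over the single vehicle libraries left out (-0.0732 to 0.016), Svil over the latter (-0.16 to 0.014), Reck with the block (-0.031) and over single libraries (-0.15 to 0.36), Bach2 with the block (-0.12) and over single libraries (-0.020 to 0.23), 5330406M23Rik with limma voom (0.022) and over single libraries (-0.82 to 0.71), Gm43029 with limma voom (0.098) and over single libraries (-0.77 to 1.20), and Gm6576 with the block (0.25) and over single libraries (-0.41 to 0.29). Against all vehicle libraries it changed for Yap1 with no filter (0.029), without borrelidin replicates 5 to 8 (0.040) and over borrelidin replicates 5 and 10 left out in turn (-0.0101 to 0.0061).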
